A study of Mus musculus with 40 samples.

Results

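The enzymes of de novo lipogenesis were examined together with Pnpla3 in the livers of 40 male mice at 5 months of age. The set was chosen by name and holds 10 of the 40594 genes counted: Acly, Acaca, Acacb, Fasn, Elovl6, Elovl5, Scd1, Me1, Thrsp and Pnpla3. All 10 were among the 12942 genes that reached at least 1 CPM (counts scaled to a common library size) in at least 5 mice. RNA sequencing read counts were available for 8 groups of 5 mice. Wild-type (WT) mice and mice with a liver-specific PPARγ knockout (KO) were given a control diet with vehicle (control), the control diet with pioglitazone (Pio), a high-fat diet with vehicle (HFD) or the high-fat diet with pioglitazone (HFD-Pio). Pio is a thiazolidinedione that activates PPARγ. KO mice carried loxP-flanked Pparg and the Alb-Cre transgene, so that the hepatocytes lose PPARγ while other liver cells keep it. The WT mice were C57BL6/J animals and carried neither allele, so that loxP and Cre also differ between the genotypes. WT and KO counts came in separate tables, and genotype and table cannot be told apart. Levels of WT and KO mice were therefore never tested against each other. Only the effects of diet and drug were estimated within each genotype and then compared.

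De novo lipogenesis turns surplus carbohydrate into fatty acids. ATP citrate lyase (Acly) makes cytosolic acetyl-CoA, the acetyl-CoA carboxylases (Acaca, Acacb) make malonyl-CoA, and fatty acid synthase (Fasn) builds palmitate from both with NADPH that malic enzyme (Me1) helps to supply. Elongases (Elovl6, Elovl5) and stearoyl-CoA desaturase (Scd1) then lengthen and desaturate the product. In liver the pathway is known to follow feeding with carbohydrate and insulin through the transcription factors SREBP-1c and ChREBP, and dietary fat, above all polyunsaturated fat, is known to lower it. Thrsp encodes the thyroid hormone responsive Spot 14 protein, a lipogenic regulator. Pnpla3 encodes a lipid droplet protein of the patatin-like phospholipase family and is a known SREBP-1c target.

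In GRCm38 (mm10) the members lie apart, with 3 on chromosome 11: Fasn (chr11:120805846-120824547, minus strand), Acaca (chr11:84129672-84401651, plus) and Acly (chr11:100476353-100528000, minus). Acacb lies at chr5:114146535-114250761 (plus), Scd1 at chr19:44394455-44407879 (minus), Elovl6 at chr3:129532355-129638495 (plus), Elovl5 at chr9:77917364-77984519 (plus), Me1 at chr9:86581371-86695953 (minus), Thrsp at chr7:97412938-97417730 (minus) and Pnpla3 at chr15:84167837-84187236 (plus). Counts cover the exons of each gene. In GENCODE M21, exons of Elovl6, Me1 and Pnpla3 overlap those of Gm35986, A330041J22Rik and Gm49513, and reads in such an overlap cannot be assigned. The counts were made with the genes of Ensembl 76, and whether the overlaps exist there was not checked.

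WT libraries held 15788242 to 49857017 counts and KO libraries 21542958 to 28334251. The 8 hepatocyte markers tested summed to between 74911 and 147960 CPM in the 7 groups other than KO Pio. KO Pio mouse 13 stood apart, with 34529 CPM of these markers and 10663 CPM of Alb against 45240 or more in every other mouse. Its SREBP-1 transcript, Srebf1, reached 2905 CPM against 351 to 419.9 in the other KO Pio mice. The mouse carries the group label Pio and was kept, and calls of the members that change without it are given both ways. Pparg itself measured 5.79 to 14.2 CPM in WT and 3.01 to 9.90 CPM in KO mice. These counts include exons outside the deleted part and do not measure the deletion. Each p value reported here reflects the spread between the mice of these groups and counting error only. In whole liver, fewer cells of a type and less RNA per cell cannot be told apart.

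Promoters are shown for 4 members: Pnpla3 and Acacb, which had the largest estimates for HFD against control in WT mice, and Acly and Fasn, which carry the first step and the synthase reaction. Each run holds 250 bases before and 50 after a RefSeq start (build GRCm38.p6), 5′ to 3′ on the gene's own strand. Capitals mark CCAAT boxes (CCAAT) and GC boxes (GGGCGG) on either strand, so that ATTGG and CCGCCC are the same letters read from the other strand.
Fasn (chr11:120824498-120824797, minus strand): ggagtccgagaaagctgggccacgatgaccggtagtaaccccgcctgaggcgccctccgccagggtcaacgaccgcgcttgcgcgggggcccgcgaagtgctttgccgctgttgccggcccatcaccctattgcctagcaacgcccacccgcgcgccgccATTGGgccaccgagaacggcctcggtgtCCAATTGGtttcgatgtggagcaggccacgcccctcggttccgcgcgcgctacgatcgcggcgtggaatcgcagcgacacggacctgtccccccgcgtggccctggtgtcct
Acly (chr11:100527951-100528250, minus strand): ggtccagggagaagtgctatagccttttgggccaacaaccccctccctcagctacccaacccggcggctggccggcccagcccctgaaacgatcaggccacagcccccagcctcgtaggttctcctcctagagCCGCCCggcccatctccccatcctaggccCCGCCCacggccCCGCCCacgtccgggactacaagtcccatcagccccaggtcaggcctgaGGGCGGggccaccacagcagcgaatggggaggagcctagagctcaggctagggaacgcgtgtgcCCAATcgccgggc
Acacb (chr5:114165268-114165567, plus strand): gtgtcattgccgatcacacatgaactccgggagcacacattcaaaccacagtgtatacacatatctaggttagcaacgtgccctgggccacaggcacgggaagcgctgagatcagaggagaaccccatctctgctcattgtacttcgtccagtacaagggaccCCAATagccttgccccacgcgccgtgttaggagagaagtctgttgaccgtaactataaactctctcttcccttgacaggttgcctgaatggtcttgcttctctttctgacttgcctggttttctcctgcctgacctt
Pnpla3 (chr15:84167566-84167865, plus strand): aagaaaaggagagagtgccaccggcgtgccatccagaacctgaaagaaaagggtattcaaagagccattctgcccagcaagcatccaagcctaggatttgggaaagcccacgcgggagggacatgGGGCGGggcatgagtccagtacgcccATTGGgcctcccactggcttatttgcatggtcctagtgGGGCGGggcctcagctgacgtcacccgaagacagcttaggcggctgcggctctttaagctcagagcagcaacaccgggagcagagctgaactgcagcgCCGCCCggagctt

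In the Fasn run, 3 CCAAT matches were found, of which the last 2 overlap on opposite strands. The Acly run held 4 GC boxes and 1 CCAAT box, the Pnpla3 run 3 GC boxes and 1 CCAAT box, and the Acacb run 1 CCAAT box. The Acacb start used here lies inside the annotated gene. RefSeq promoters were found for 9 of the 10 members, and Scd1 had none in the table. The Acaca start also lies inside its gene, and Me1 had a further start inside the gene, so that the 9 members had 10 promoters. With any promoter of a member counted, a CCAAT box occurred in 7 of these 9 members. Of all 32851 single promoters of this length 37.4% held it. A GC box was found in 3 of 9 members against 35.7% of single promoters. The CCAAT box of Me1 lay in the promoter inside the gene and its GC boxes in the other. The E-box CACGTG was found in Elovl5 only, against 7.15% of promoters. A sterol regulatory element (TCACNCCAC, 1.24% of promoters), the direct repeats bound by PPAR and RXR (DR1, AGGTCA repeated after 1 base, 0.0396%) and those bound by LXR and RXR (DR4, AGGTCA repeated after 4 bases, 0.0152%) were found in 0 of 9 members in exactly these letters and this window. The motifs were searched on both strands, and a match is a description of the letters.

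**Figure D1:**
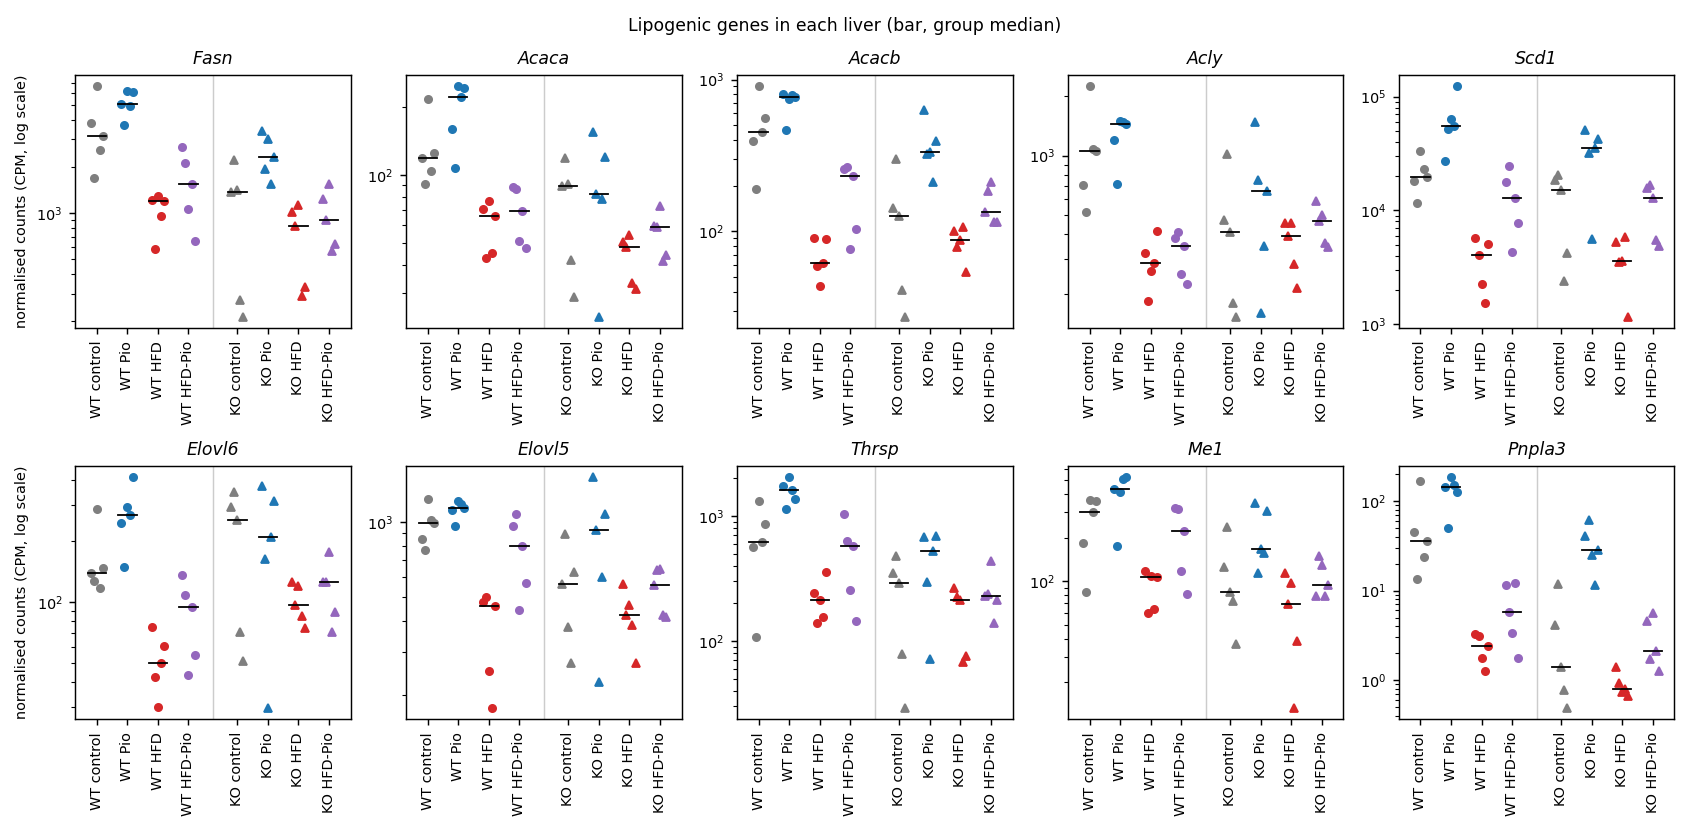
Normalised counts of the 10 genes, in CPM on a log scale, for each of the 40 mice. Circles are WT mice, triangles KO mice, and bars the group medians. In WT mice the HFD points lie below the control points without overlap for 8 genes, and Pnpla3 spans the widest range, from 0.488 to 185 CPM.

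The genes differed widely in level. Per kilobase of exon (RPKM), Scd1 was the most abundant member in all 8 groups, and its lowest mouse was above the highest mouse of the next member in each. It averaged 4336 ± 1628 RPKM in WT control mice (SD, n = 5), followed by Fasn (327 ± 173), Thrsp (317 ± 203), Elovl5 (276 ± 50.9) and Acly (213 ± 127), whose ranges overlapped from each gene to the next. Me1 (67.2 ± 31.7), Acacb (51.8 ± 27.3), Pnpla3 (37.3 ± 41.2) and Elovl6 (25.4 ± 10.9) formed a lower series of overlapping ranges. Acaca, the carboxylase linked to synthesis, was lowest at 7.69 ± 2.92 RPKM and did not overlap Elovl6. In WT HFD mice Pnpla3 (1.53 ± 0.556 RPKM) lay below Acaca (3.53 ± 0.901) without overlap, a different order from the WT control and WT Pio mice. The same order of these 2 genes held in KO HFD mice, where Pnpla3 measured 0.583 ± 0.188 RPKM and Acaca 2.54 ± 0.612. Pnpla3 also had the lowest mean in KO control (2.41 ± 3.08) and KO HFD-Pio mice (1.98 ± 1.24), there with ranges that overlapped Acaca. Transcripts of Scd1 alone took 0.119% to 9.73% of the counts of a library, with the highest share in WT Pio mouse 845 and the lowest in KO HFD mouse 10.

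**Figure D2:**
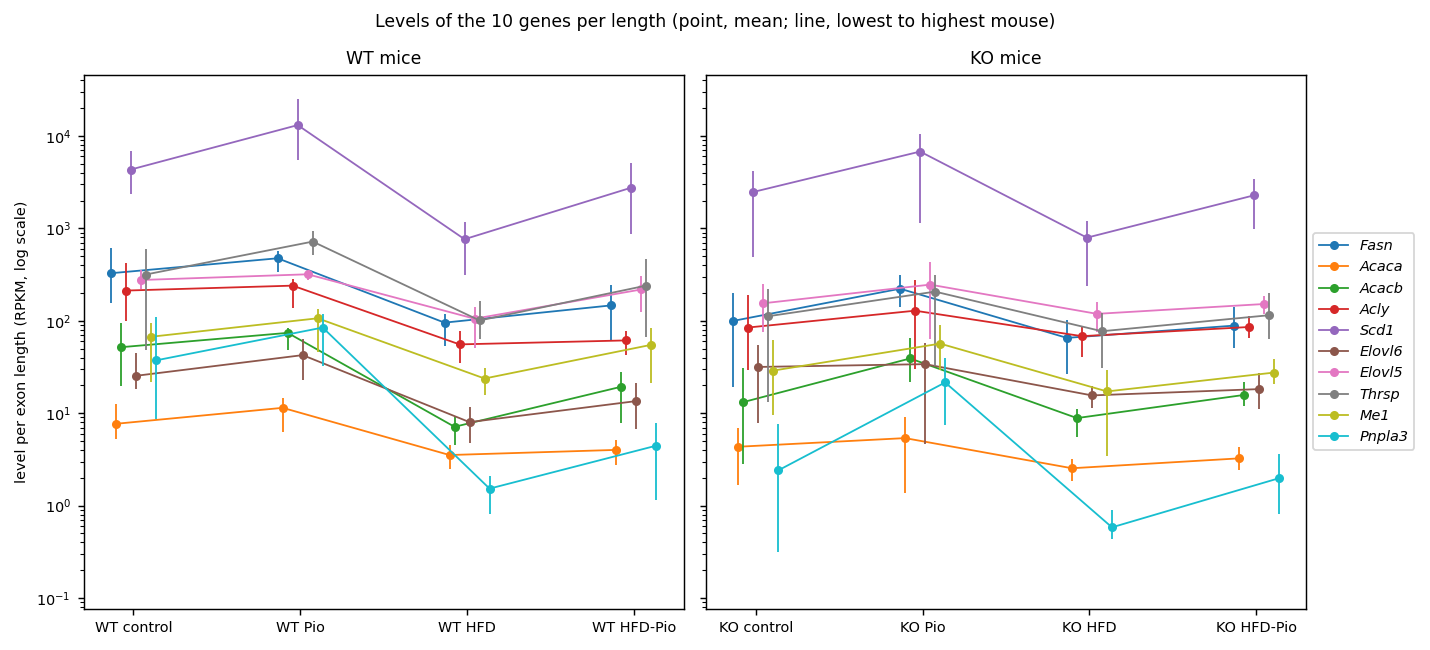
Mean level per exon length, in RPKM on a log scale, of the 10 genes in the 4 WT groups (left) and 4 KO groups (right). Vertical lines run from the lowest to the highest of 5 mice. Scd1 stays above all others, and Pnpla3 has the lowest mean in WT HFD, KO control, KO HFD and KO HFD-Pio mice.

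HFD lowered 6 of the 10 members in WT mice without Pio, against 0.719% of all genes tested that were lower. The called genes were Pnpla3, Acacb, Scd1, Acly, Elovl5 and Fasn, and all 10 estimates were negative, with a median log2 fold change of -1.72 against 0.00 for all genes. Pnpla3 measured 45.7, 13.6, 169.6, 23.6 and 36.3 CPM in WT control mice 831 to 835 and 3.25, 3.15, 1.77, 1.27 and 2.40 CPM in WT HFD mice 826 to 830. The lowest control mouse was thus above the highest HFD mouse, and the log2 fold change was -4.60 ± 0.72 (SE, adjusted p = 0.000445). Without WT control mouse 833, the highest, it was -3.66 (adjusted p = 0.00368). Acacb, whose product malonyl-CoA is known to restrain mitochondrial fatty acid uptake, measured 394, 189, 905, 451 and 555 CPM in control and 89.7, 59.1, 43.7, 61.5 and 89.5 CPM in HFD mice. Its ranges did not overlap either (log2 fold change -2.86 ± 0.45, adjusted p = 0.000445). The calls for Pnpla3 and Acacb held in each of the 40 fits that left out 1 mouse.

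Along the pathway, Acly, the first step, measured 709, 520.4, 2245, 1081 and 1054 CPM in WT control and 323, 184, 261, 286 and 414 CPM in WT HFD mice (log2 fold change -1.93 ± 0.44, adjusted p = 0.017). Fasn measured 3815, 1689, 6666, 2575 and 3170.4 CPM in control and 1208, 583, 1291, 959 and 1191 CPM in HFD mice (-1.78 ± 0.48, adjusted p = 0.0493). In both genes all control mice were above all HFD mice. Scd1 measured 18197, 11656, 33373, 23065 and 19761 CPM in control and 5730.4, 4043, 2276, 1537 and 5093 CPM in HFD mice (-2.51 ± 0.57, adjusted p = 0.017). Elovl5, which lengthens polyunsaturated fatty acids, measured 772 to 1240.3 CPM in control and 178 to 496 CPM in HFD mice (-1.39 ± 0.34, adjusted p = 0.0254). Neither gene overlapped between the groups.

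The call for Fasn was marginal. It was lost with RLE size factors (adjusted p = 0.0503), limma (adjusted p = 0.176) and no count filter (adjusted p = 0.0955), and in 25 of the 40 fits that left out 1 mouse, with log2 fold changes of -1.87 to -1.44 and adjusted p of 0.0515 to 0.153. Of the mice compared, these were control mice 833 and 835 and all 5 HFD mice. The others were WT Pio mice 841, 843, 844 and 845, WT HFD-Pio mice 837 to 839, KO control mice 1 and 3, KO Pio mouse 15, KO HFD mice 6 to 8 and KO HFD-Pio mice 16 to 20, which enter through the shared estimate of spread. The call for Acly was lost without control mouse 833 (-1.54, adjusted p = 0.085) or HFD mouse 828 (-1.91, adjusted p = 0.0608). Scd1 lost its call without control mouse 833 (-2.29, adjusted p = 0.0504), HFD mouse 828 (-2.38, adjusted p = 0.0628) or HFD mouse 829 (-2.31, adjusted p = 0.0647). The same 3 mice decided the call for Elovl5, at -1.30 (adjusted p = 0.0664), -1.29 (adjusted p = 0.0853) and -1.21 (adjusted p = 0.0896). Each estimate stayed negative.

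The other 4 members were not called by edgeR with every mouse. DESeq2 called 3 of them, Acaca, Elovl6 and Me1, among 376 genes in all. The same 3 were called with the WT mice fitted alone, among 345 genes. Acaca measured 91.0 to 217 CPM in WT control and 42.9 to 76.6 CPM in WT HFD mice (log2 fold change -1.12 ± 0.35, adjusted p = 0.095). Elovl6, which lengthens palmitate to stearate, measured 116 to 287 and 30.3 to 74.9 CPM (-1.66 ± 0.46, adjusted p = 0.0578). Both separated the groups completely, as did 8 of the 10 members, against 1.41% of all genes tested, and the exact two-sided permutation test of 5 against 5 gave the smallest p it allows, 0.00794, for each of the 8. Thrsp (107 to 1323 against 139 to 356 CPM, -1.65 ± 0.60, adjusted p = 0.166) and Me1 (83.8 to 365 against 60.3 to 118 CPM, -1.50 ± 0.47, adjusted p = 0.105) overlapped. In Thrsp control mouse 832 lay below every HFD mouse, and in Me1 it lay inside the HFD range. Elovl6 passed the test without WT control mouse 831 (-1.73, adjusted p = 0.0435), KO control mouse 4 (-1.66, adjusted p = 0.0495), KO control mouse 5 (-1.66, adjusted p = 0.0379) or KO Pio mouse 13 (-1.67, adjusted p = 0.0109). Without KO Pio mouse 13, 8 of the 10 members were called, all but Thrsp and Me1, against 3.33% of genes. Acaca was then at -1.13 (adjusted p = 0.0191).

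**Figure D3:**
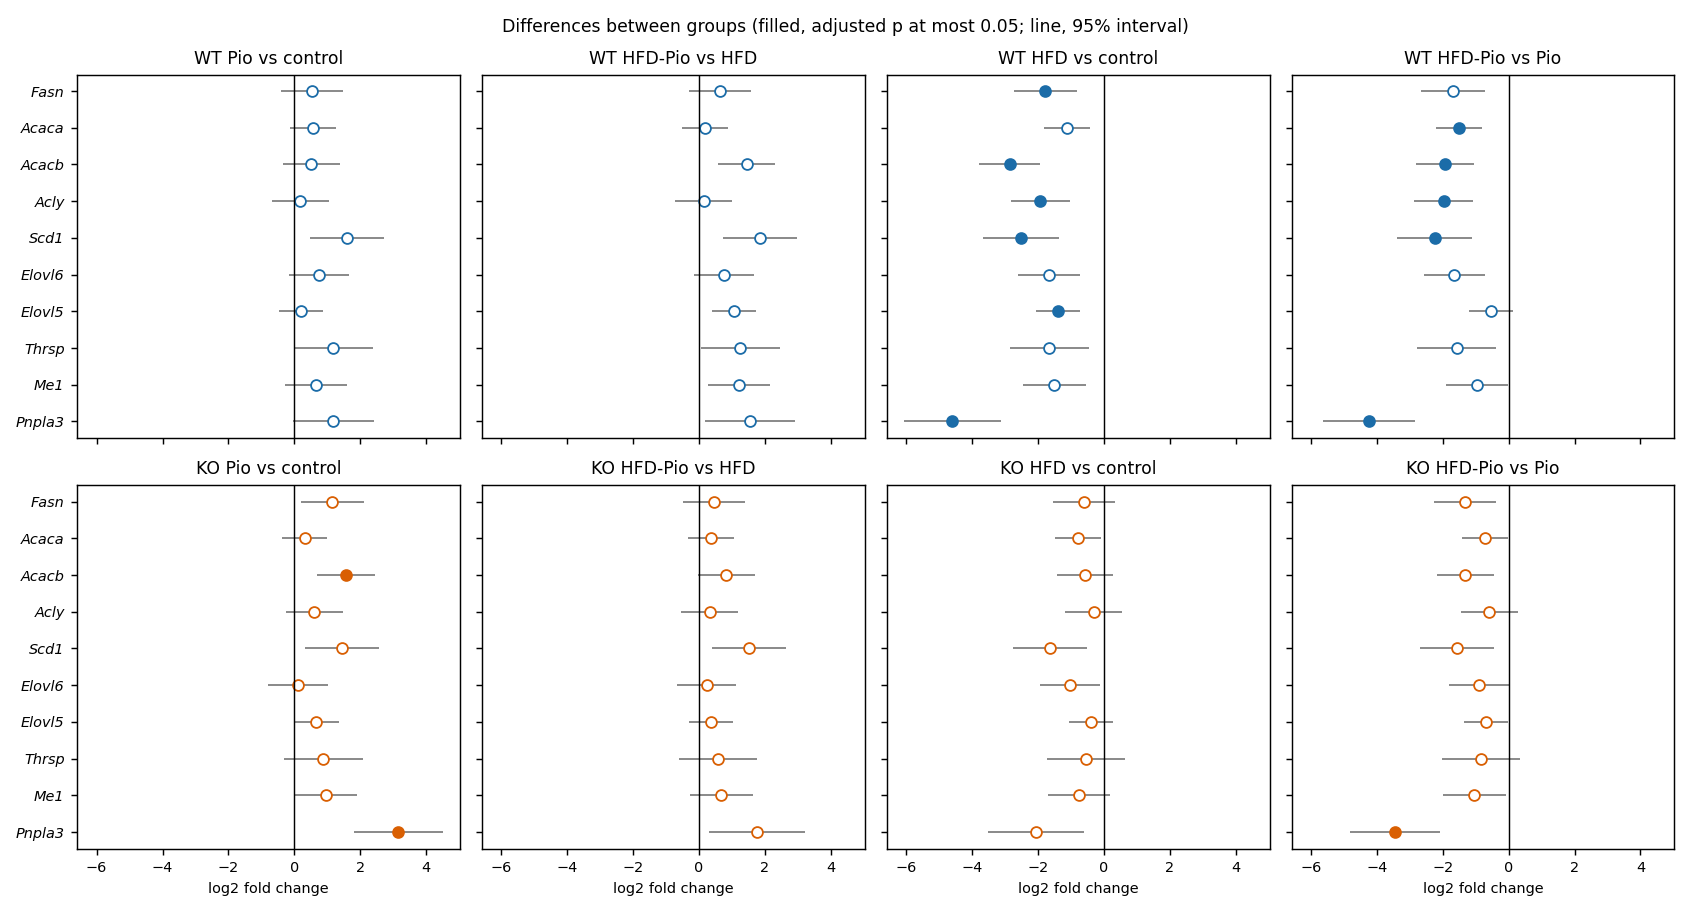
Log2 fold changes of the 10 genes in the 8 comparisons of 2 groups, WT in the upper and KO in the lower row. Filled points passed an adjusted p of 0.05 over all genes tested, and lines are 95% intervals. The diet comparisons in WT mice hold 6 and 5 filled points to the left of 0, and the KO row holds 3 in all.

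HFD also lowered members in WT mice that received Pio. In HFD-Pio against Pio mice 5 members were called lower, against 0.966% of genes: Pnpla3, Acly, Acacb, Acaca and Scd1. The median over the 10 was -1.67 against -0.01 for all genes. Pnpla3 measured 143, 49.8, 185, 150.3 and 127 CPM in Pio mice 841 to 845 and 11.6, 5.80, 3.37, 12.0 and 1.76 CPM in HFD-Pio mice 836 to 840 (log2 fold change -4.24 ± 0.69, adjusted p = 0.000742), a call that held in every fit leaving out 1 mouse. Acly measured 722 to 1495 and 225 to 411 CPM (-1.97 ± 0.44, adjusted p = 0.0179). Acacb measured 799.8, 467, 743, 789 and 769 CPM in Pio and 255, 267, 76.4, 231 and 103 CPM in HFD-Pio mice (-1.93 ± 0.44, adjusted p = 0.0179). All 3 genes separated the groups. Acaca fell from between 108 and 247 to between 47.5 and 88.2 CPM (-1.51 ± 0.35, adjusted p = 0.0203). Scd1 measured 27215, 51755, 63615, 54813 and 123510.0 CPM in Pio and 17850.1, 24686, 4309, 12948 and 7771 CPM in HFD-Pio mice (-2.25 ± 0.57, adjusted p = 0.0367), also without overlap.

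Fasn (-1.69 ± 0.47, adjusted p = 0.0612), Elovl6 (-1.65 ± 0.46, adjusted p = 0.0588) and Thrsp (-1.58 ± 0.59, adjusted p = 0.188) separated these groups without passing the test, so that 8 of 10 members did not overlap, against 3.59% of genes. Elovl5 (966 to 1208 against 443 to 1078 CPM, -0.54 ± 0.33, adjusted p = 0.489) and Me1 (175 to 522 against 81.8 to 322 CPM, -0.95 ± 0.47, adjusted p = 0.35) overlapped. The comparison shares no mice with that of HFD against control.

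Single mice decided several of these calls. Acaca was no longer called without Pio mouse 843 (-1.41, adjusted p = 0.0647) or 845 (-1.43, adjusted p = 0.0811) or HFD-Pio mouse 838 (-1.42, adjusted p = 0.0672), 839 (-1.51, adjusted p = 0.0525) or 840 (-1.40, adjusted p = 0.0827). For Acacb the mice were 845 (-1.91, adjusted p = 0.0513), 838 (-1.74, adjusted p = 0.0652) and 840 (-1.78, adjusted p = 0.0722), and for Acly the same mice, at -1.92 (adjusted p = 0.0513), -1.89 (adjusted p = 0.0612) and -1.86 (adjusted p = 0.0673). Scd1 lost its call without Pio mouse 843 (-2.25, adjusted p = 0.0696) or 845 (-1.87, adjusted p = 0.20) or HFD-Pio mouse 836 (-2.37, adjusted p = 0.0638), 838 (-2.02, adjusted p = 0.105), 839 (-2.23, adjusted p = 0.0882) or 840 (-2.10, adjusted p = 0.117). The Scd1 call was also lost with every mouse and no count filter (-2.23, adjusted p = 0.0874). Fasn and Elovl6 gained a call without Pio mouse 841 (-1.70, adjusted p = 0.0418, and -1.69, adjusted p = 0.0356) or KO control mouse 5 (-1.69, adjusted p = 0.0422, and -1.65, adjusted p = 0.043). They also did so without KO Pio mouse 13 (-1.70, adjusted p = 0.0234, and -1.66, adjusted p = 0.00964), where 7 members were called against 5.16% of genes.

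Pio alone did not change any member past the threshold in WT mice. With edgeR 0 of 10 were called in Pio against control mice, against 3.91% of all genes. An unadjusted p below 0.05 was found for 1 member, Scd1, and for 2314 of all 12942 genes. DESeq2 called 1 member, Scd1 (1.61, adjusted p = 0.0327), among 813 genes in all. With limma 1 member was called, Pnpla3 (1.98, adjusted p = 0.0052), among 3095 genes. All 10 estimates were positive, with a median of 0.62. Scd1 in Pio mice was above every control mouse in 4 of 5 livers (log2 fold change 1.60 ± 0.55, adjusted p = 0.097), with Pio mouse 841 at 27215 CPM inside the control range. Without KO Pio mouse 13 it was called (1.62, adjusted p = 0.0291), against 8.44% of genes called higher in that fit. Thrsp measured 1739, 1134, 2035, 1616 and 1359 CPM in Pio mice and 565, 107, 1323, 621 and 855 CPM in control mice (1.18 ± 0.59, adjusted p = 0.284). Pnpla3 was at 1.18 ± 0.61 (adjusted p = 0.304). Control mouse 833 held 169.6 CPM of Pnpla3, within the Pio range, and without it the gene was called (2.14, adjusted p = 0.048). The remaining estimates ran from 0.18 ± 0.43 for Acly to 0.74 ± 0.45 for Elovl6. That of Acly turned to -0.0036 without control mouse 832.

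On HFD the estimates for Pio in WT mice were again all positive, with a median of 1.13, and edgeR called 0 of 10, against 1.08% of genes. Here 6 members had an unadjusted p below 0.05, against 2020 of all 12942 genes. DESeq2 called 3 members among 360 genes in all, and limma 0 among 1087. Scd1 measured 17850.1, 24686, 4309, 12948 and 7771 CPM in HFD-Pio against 1537 to 5730.4 CPM in HFD mice (1.85 ± 0.56, adjusted p = 0.0903). Acacb was at 1.44 ± 0.43 (adjusted p = 0.0866) and Elovl5 at 1.05 ± 0.33 (adjusted p = 0.109). In each of the 3 genes 4 of 5 HFD-Pio mice were above all HFD mice, and the exact permutation p was 0.0238, 0.0317 and 0.0317. Without KO Pio mouse 13 these 3 were called higher (Acacb adjusted p = 0.029, Scd1 0.019, Elovl5 0.015), against 5.2% of genes called higher. Acly (0.14 ± 0.43) and Acaca (0.19 ± 0.34) had the smallest estimates. The HFD-Pio and HFD groups also enter the diet comparisons above. In WT mice the diet by Pio interaction was called for 0 of 10 members by edgeR, DESeq2 or limma. Its unadjusted p was below 0.05 for 0 of 10, against 1564 of all 12942 genes. Its estimate was 0.26 for Scd1 (95% interval -1.29 to 1.81) and 0.93 for Acacb (-0.29 to 2.14), and 0.0773% of genes were called. In KO mice the interaction was called for 0 of 10 members and 0% of genes, and for 0 members by DESeq2 or limma. Its unadjusted p was below 0.05 for 0 members, against 1562 of all 12942 genes. The estimate for Pnpla3 was -1.39 (-3.34 to 0.55).

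In KO mice, Pio on control diet raised Pnpla3 and Acacb, 2 of 10 members against 7.75% of genes called higher. Pnpla3 measured 4.17, 11.8, 1.39, 0.770 and 0.488 CPM in KO control mice 1 to 5 and 40.4, 61.3, 25.0, 11.4 and 28.5 CPM in KO Pio mice 11 to 15. Only mouse 14 fell inside the control range, which reached that high in mouse 2 alone, and the log2 fold change was 3.15 ± 0.67 (adjusted p = 0.00906). Pnpla3 was called in every fit that left out 1 mouse, with 4.29 (adjusted p = 0.00432) without KO control mouse 2 and 3.27 (adjusted p = 0.022) without KO Pio mouse 13. Fitted on the KO mice alone, neither Pnpla3 (3.18, adjusted p = 0.0831) nor Acacb (1.59, adjusted p = 0.139) was called. Acacb measured 143, 298, 126, 41.1 and 27.4 CPM in control and 625, 322, 333, 212 and 394 CPM in Pio mice (1.57 ± 0.43, adjusted p = 0.0261). Its call was lost without KO control mouse 1 (1.61, adjusted p = 0.0589), 3 (1.57, adjusted p = 0.055), 4 (1.34, adjusted p = 0.073) or 5 (1.31, adjusted p = 0.0549) or KO Pio mouse 13 (1.63, adjusted p = 0.0922). Without KO control mouse 2 it was 2.16 (adjusted p = 0.0103). The share of genes called higher dropped to 0.357% without KO Pio mouse 13, where Pnpla3 alone of the members was called.

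The other 8 members had positive estimates in this comparison that edgeR did not call. Fasn (1.16 ± 0.47, adjusted p = 0.102) and Scd1 (1.45 ± 0.55, adjusted p = 0.083) had the largest. DESeq2 also called Scd1 (1.45, adjusted p = 0.0444), among 1427 genes in all. With limma Scd1 (1.97, adjusted p = 0.0208) and Elovl5 (0.96, adjusted p = 0.0243) were called too, among 1216 genes. Scd1 measured 50968, 31872, 35560.4 and 41985 CPM in 4 KO Pio mice and 5609 CPM in mouse 13, against 18629, 20373, 14985, 2398 and 4226 CPM in KO control mice. All 4 former mice were above all controls. Mouse 13 was also the lowest of its group in Acaca, Acly, Elovl6, Elovl5 and Thrsp, but inside the range of the others in Fasn, Acacb, Me1 and Pnpla3. The estimate for Elovl6 was 0.10 ± 0.45 and turned negative, to between -0.18 and -0.07, without KO control mouse 4 or 5 or KO Pio mouse 11 or 15.

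On HFD, 0 members were called for Pio in KO mice, against 0.0155% of genes called at all. All 10 estimates were positive, with a median of 0.51. An unadjusted p below 0.05 was found for 2 (Scd1, Pnpla3), against 134 of all 12942 genes. Neither DESeq2 nor limma called a member. Acacb measured 133, 185, 211, 115 and 115 CPM in HFD-Pio mice 16 to 20 and 100.2, 78.4, 87.8, 107 and 53.4 CPM in HFD mice 6 to 10. It was the only member without overlap in this comparison, against 0.294% of genes (0.83 ± 0.42, adjusted p = 1.00, exact permutation p = 0.00794). Pnpla3 measured 4.63, 1.74, 5.59, 2.10 and 1.26 CPM against 1.40, 0.920, 0.736, 0.787 and 0.670 CPM (1.76 ± 0.72, exact permutation p = 0.0159). Scd1 measured 4876 to 16756 CPM against 1169 to 5827 CPM (1.52 ± 0.55, exact permutation p = 0.0397).

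HFD without Pio left no member past the threshold in KO mice, against 0.185% of all genes. All 10 estimates were negative, with a median of -0.68, and 4 had an unadjusted p below 0.05, against 595 of all 12942 genes. DESeq2 called 0 members among 53 genes in all, and limma 1, Scd1, among 542. No member separated the groups. The KO control group was wide, with Fasn at 1361, 2204, 1416, 271 and 213 CPM against 1012, 825, 1120.5, 291 and 329 CPM in HFD mice (-0.61 ± 0.46). Pnpla3 was at -2.05 ± 0.72 (adjusted p = 0.58), and at -0.92 without KO control mouse 2. Scd1 was at -1.64 ± 0.55 (adjusted p = 0.513). Without KO control mouse 2 the estimates of Acly (-0.31 ± 0.43) and Acacb (-0.57 ± 0.42) turned to 0.24 and 0.02.

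Between KO HFD-Pio and KO Pio mice, Pnpla3 alone was called (log2 fold change -3.44 ± 0.68, adjusted p = 0.0164), 1 of 10 against 4.54% of genes called lower. An unadjusted p below 0.05 was found for 7 members, against 3106 of all 12942 genes. Pnpla3, Fasn (-1.33 ± 0.47, adjusted p = 0.0765) and Acacb (-1.31 ± 0.43, adjusted p = 0.0601) separated the groups, against 1.2% of genes. The call for Pnpla3 was lost without KO HFD-Pio mouse 17 (-3.30, adjusted p = 0.0681), 19 (-3.33, adjusted p = 0.0771) or 20 (-3.24, adjusted p = 0.0698), and with the KO mice fitted alone (-3.46, adjusted p = 0.13), and it held without KO Pio mouse 13 (-3.54, adjusted p = 0.037). Fasn gained a call without KO Pio mouse 12 (-1.41, adjusted p = 0.0489) or 14 (-1.45, adjusted p = 0.0401). Acacb did so without mouse 12 (-1.38, adjusted p = 0.0367), mouse 14 (-1.46, adjusted p = 0.0246), KO control mouse 2 (-1.31, adjusted p = 0.0498) or KO control mouse 5 (-1.31, adjusted p = 0.0477). Fasn measured 3404, 1924, 3008, 1547 and 2302 CPM in Pio mice and 1235, 899, 1531, 563 and 627 CPM in HFD-Pio mice.

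Whether the genotypes differed was tested as the difference of their effects. EdgeR called 0 of 10 members for any of the 4 differences between KO and WT mice. For the effect of HFD without Pio, 4 members had an unadjusted p below 0.05, against 1220 of all 12942 genes. All 10 differences were positive, with a median of 1.06 against -0.01 for all genes, of which 0.0618% were called. Acacb had a difference of 2.29 (95% interval 1.06 to 3.51, adjusted p = 0.106), and DESeq2 called it alone (2.29, adjusted p = 0.0202), while limma called 0 members. Pnpla3 was at 2.55 (0.56 to 4.54), Acly at 1.62 (0.39 to 2.85) and Elovl5 at 1.01 (0.06 to 1.96). Without KO control mouse 2 the difference of Acacb was 2.88 (adjusted p = 0.0293). For the effect of HFD with Pio, 1 unadjusted p was below 0.05, that of Acly (1.38, 0.16 to 2.61). Of all 12942 genes, 2496 had an unadjusted p that low and 0.0155% were called.

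The effect of Pio on control diet differed by 1.97 for Pnpla3 (95% interval 0.20 to 3.74, adjusted p = 0.138), the only member with an unadjusted p below 0.05. Of all 12942 genes, 3515 had an unadjusted p that low and 7.87% were called. Without KO control mouse 2 the difference of Pnpla3 was 3.10 (adjusted p = 0.0282). For Scd1 the difference was -0.14 (-1.69 to 1.41), for Fasn 0.62 (-0.71 to 1.94), for Acaca -0.26 (-1.24 to 0.72) and for Acly 0.43 (-0.79 to 1.65). On HFD the differences ran from -0.70 for Elovl5 (-1.65 to 0.25) to 0.21 for Pnpla3 (-1.73 to 2.16). Of the members 0 had an unadjusted p below 0.05, against 768 of all 12942 genes, of which 0.0927% were called. DESeq2 and limma called 0 members for these last 3 differences. A p that missed the threshold does not show that the genotypes responded alike, and the intervals give the differences these data allow.

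**Figure D4:**
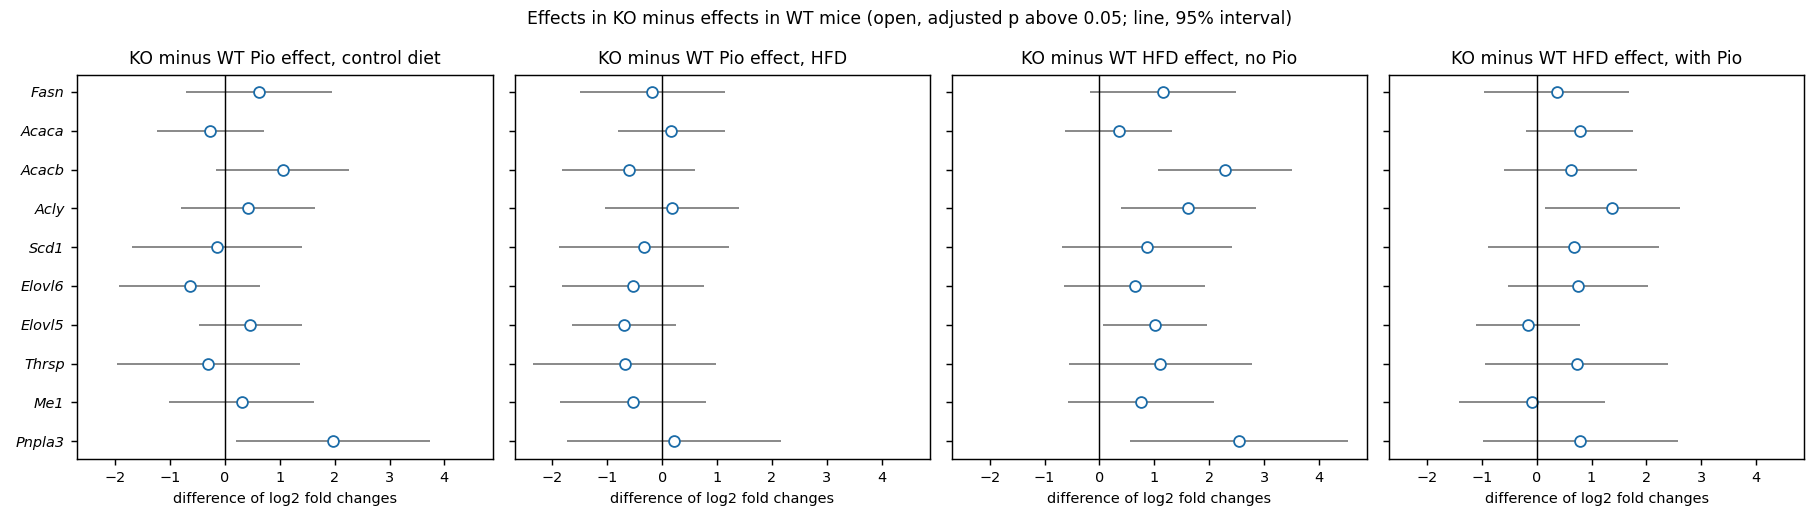
Differences between the effects in KO and WT mice, in log2 fold change, for the 10 genes and 4 effects, with 95% intervals. Each point is open because no adjusted p was at or below 0.05. The largest differences are those of Pnpla3 (2.55) and Acacb (2.29) for HFD without Pio.

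The members varied together between mice of a group. WT control mouse 833 was the highest of its group in 10 of 10 members, and mouse 832 the lowest in 9. KO control mouse 2 was the highest in 10 of 10, and mouse 5 the lowest in 8. In WT Pio mice, mouse 842 was the lowest in 9, and in KO Pio mice, mouse 11 was the highest in 8. Pooled over the 8 groups, the SD of log2 CPM within groups had a median of 0.82 over the members, against 0.33 over the 4196 genes at least as abundant as the lowest member. Thrsp (1.09), Pnpla3 (1.06) and Scd1 (0.98) spread most, and Elovl5 (0.57) and Acaca (0.60) least. The least variable member, Elovl5, still exceeded 92.4% of those genes.

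**Figure D5:**
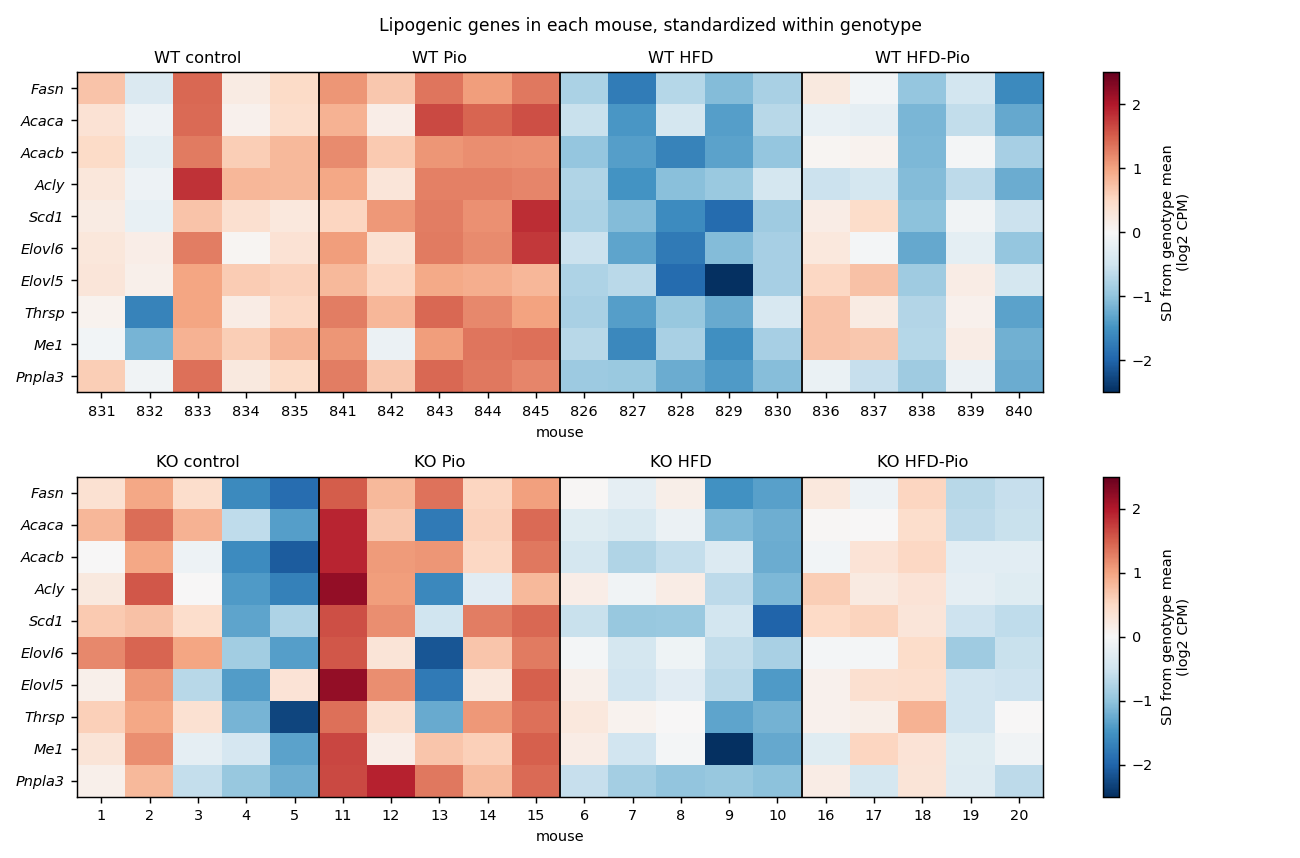
Level of each gene in each mouse, as SD from the mean of its genotype on the log2 CPM scale, with mice grouped by treatment and WT above KO. Columns of 1 colour show that members move together within a group, as in WT control mouse 833 and KO control mouse 2. KO Pio mouse 13 is low in 6 genes and not in Fasn, Acacb, Me1 and Pnpla3.

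Regulators of the pathway were read from a list of 20 genes, of which all were tested. In WT mice 1 to 3 of them had an unadjusted p below 0.05 in each of the 4 comparisons, against 1710 to 2314 of all 12942 genes. EdgeR called 0 of them in each. Without KO Pio mouse 13 it called 1 lower for Pio on control diet (Stk11), 1 higher and 2 lower for Pio on HFD (Insig2, Usf2, Nr1h2), 1 higher for HFD without Pio (Usf2) and 1 higher for HFD with Pio (Stk11). These 4 genes were named after their values were seen. That fit called 15.6%, 11.6%, 6.55% and 8.68% of all genes in the 4 comparisons, in the order given. DESeq2 called 0 in all 4 with every mouse, and limma called 1 lower for Pio on control diet and 5 higher and 2 lower for HFD with Pio. Of all 12942 genes, limma called 1580 lower in the former and 1524 higher and 1413 lower in the latter. Srebf1 measured 526 to 882 CPM in WT control and 293 to 642 CPM in WT HFD mice (log2 fold change -0.65 ± 0.40, adjusted p = 0.517). ChREBP is encoded by Mlxipl, named here after its values were seen, which measured 414 to 1543 and 789 to 2164 CPM (0.14 ± 0.30, adjusted p = 0.90).

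In KO mice on control diet Pio raised 4 of the 20 regulators, against 7.75% of all genes: Insig1, which retains SREBP in the endoplasmic reticulum (1.61, adjusted p = 0.00848), Mid1ip1, a partner of acetyl-CoA carboxylase (1.10, adjusted p = 0.0237), the SREBP escort Scap (1.06, adjusted p = 0.0237) and Nr1h2 (LXRβ, 1.28), the last named after its value was seen. All 4 calls were lost without KO Pio mouse 13, where Insig1 was at 1.07 (adjusted p = 0.0752), Mid1ip1 at 0.80 (adjusted p = 0.215) and Scap at 0.37 (adjusted p = 0.467). HFD lowered Srebf1 (-1.54, adjusted p = 0.0399) and Nr1h2 (-1.35, adjusted p = 0.0399) in KO mice with Pio, 2 of the 20 against 4.54% of all genes. Both were lost without mouse 13, at -0.36 and -0.04 (adjusted p = 1.00 for each). Srebf1 in that comparison rests on the single value of 2905 CPM.

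Of 20 genes that supply carbon and NADPH to the pathway, 3 fell with HFD in WT mice without Pio, against 0.719% of all genes. They were Acss2, which makes acetyl-CoA from acetate, and G6pdx and Pgd, the NADPH-forming dehydrogenases of the pentose phosphate pathway. Acss2 measured 301, 125, 877, 428 and 461 CPM in control and 145, 105, 146, 143 and 159 CPM in HFD mice (log2 fold change -1.65 ± 0.40, adjusted p = 0.0242). G6pdx measured 29.9, 10.6, 70.5, 23.5 and 21.0 CPM against 7.92 to 9.99 CPM (-1.78 ± 0.44, adjusted p = 0.0318), and Pgd 105 to 171 against 49.7 to 63.6 CPM (-1.09 ± 0.24, adjusted p = 0.0141). G6pdx and Pgd did not overlap between the groups, against 1.41% of all genes that were lower without overlap. With every mouse, the same 3 genes and no other gene of the list were called, again lower, in HFD-Pio against Pio mice. The share of all genes called lower there was 0.966%. G6pdx was at -2.79 ± 0.46 (adjusted p = 0.000742), Acss2 at -1.78 ± 0.40 (adjusted p = 0.0179) and Pgd at -0.91 ± 0.24 (adjusted p = 0.0467). All 3 calls of HFD against control were lost without control mouse 833, that of Acss2 also without HFD mouse 827, 828 or 829, and that of G6pdx without any 1 of the HFD mice. In the other comparison G6pdx was called in every fit leaving out 1 mouse, Acss2 was lost without Pio mouse 843 or HFD-Pio mouse 838 or 840, and Pgd was lost in 22 of 40 fits. Without KO Pio mouse 13, 4 genes of the list were called lower for HFD against control, 3 lower and 2 higher for HFD-Pio against Pio, 2 higher for Pio against control (1 with every mouse, Pdha1, at 0.68) and 5 higher for HFD-Pio against HFD (0 with every mouse). The shares of all genes in that fit were, in this order, 3.33% lower, 5.16% lower and 3.52% higher, 8.44% higher and 5.2% higher. In KO mice Pio on control diet raised 5 of the 20, against 7.75% of all genes, among them G6pdx (1.90, adjusted p = 0.0146), the citrate carrier Slc25a1 (1.10, adjusted p = 0.0166) and Tkt (0.81, adjusted p = 0.0299). G6pdx kept its call without mouse 13 (2.16, adjusted p = 0.0172), and the other 4 lost theirs, Slc25a1 at 0.46, Tkt at 0.50, Acss2 at 1.53 (1.35 with mouse 13) and Mpc2 at -0.08 (1.44 with it). Acss2 and Mpc2 were named here after their values were seen.

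Among other desaturases, elongases and genes of the elongation cycle (17 of 20 tested), HFD lowered Scd2 (-2.95, adjusted p = 0.0023) and Cyb5r3 (-1.25, adjusted p = 0.00914) in WT mice with Pio, the latter a supplier of electrons to desaturases. Pio raised Hsd17b12, the ketoacyl-CoA reductase of elongation, in WT mice on control diet (0.61, adjusted p = 0.0401) and HFD (0.76, adjusted p = 0.0227). It raised Fads1 (0.77, adjusted p = 0.0138), Hacd1 (1.13, adjusted p = 0.0249) and Scd2 (1.67, adjusted p = 0.0407) in KO mice on control diet, of which Fads1 alone held without mouse 13 (0.74, adjusted p = 0.0444), while Scd2 was then at 1.96 (adjusted p = 0.0752) and Hacd1 at 0.54 (adjusted p = 0.40). In WT mice without mouse 13, genes called in this list were 6 higher for Pio against control (2 with every mouse), 2 lower for HFD against control (0 with every mouse) and 6 lower for HFD-Pio against Pio (2 with every mouse). Of all genes, that fit called 8.44% higher, 3.33% lower and 5.16% lower. Scd2 is a near relative of Scd1, and reads that align to both are left out of counts of unique reads.

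Pnpla5, the neighbour and relative of Pnpla3, was called in the same 4 comparisons as Pnpla3, in a list of acyl-CoA synthetases and PNPLA relatives (16 of 17 tested). Pnpla5 was at most 0.498 CPM in every HFD and HFD-Pio mouse. It passed the count filter only through mice on control diet, so its calls are no support for those of Pnpla3. It is a low-count gene, with 21, 7, 80, 31 and 55 counts in WT control and 3, 0, 1, 1 and 0 counts in WT HFD mice (adjusted p = 0.00689). It was also called lower in WT HFD-Pio (3 to 10 counts) than in WT Pio mice (44 to 258 counts, adjusted p = 0.00131). In KO mice it was called higher in Pio (133, 132, 18, 32 and 135 counts) than in control mice (8, 28, 2, 0 and 0 counts, adjusted p = 0.00848), also without mouse 13 (adjusted p = 0.00756), and lower in HFD-Pio mice (3 to 11 counts) than in Pio mice (adjusted p = 0.0164). Pnpla2, which encodes adipose triglyceride lipase, was called higher with Pio in KO mice (0.78, adjusted p = 0.0384) but not without mouse 13 (0.32, adjusted p = 0.564). Acsl1, an acyl-CoA synthetase, rose with HFD in WT mice (1.08, adjusted p = 0.0134). Without mouse 13, genes called in this list in WT mice were 7 higher for Pio against control (1 with every mouse), 3 higher for HFD-Pio against HFD (0 with every mouse), 2 higher and 4 lower for HFD against control (1 each with every mouse) and 7 lower for HFD-Pio against Pio (1 with every mouse). The fit called 8.44% of all genes higher, 5.2% higher, 3.23% higher and 3.33% lower, and 5.16% lower in these comparisons.

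Genes of fasting and feeding and of the clock were read beside these results, because lipogenesis follows meals. Among the fasting and feeding genes, Cpt1a (0.63, adjusted p = 0.0354) was higher in WT HFD than control mice, where members were lower, a call lost in 7 of 40 fits that left out 1 mouse. It was also higher in WT Pio than control mice (0.60, adjusted p = 0.0274), where all member estimates were positive. Angptl4 was higher (0.94, adjusted p = 0.0179) in HFD-Pio than Pio mice. In KO mice with Pio on control diet, where Pnpla3 and Acacb were higher, Irs2 was higher (1.66, adjusted p = 0.0488), a call that was lost without mouse 13 (0.13). Of 15 clock genes, 1, Hlf, was called higher in WT HFD against control mice (1.14, adjusted p = 0.0353), as were 77 of all 12942 genes. For Pio against control in WT mice 7 were called, 4 higher and 3 lower, against 3.91% of all genes called. Among them were Cry1 (-1.54, adjusted p = 0.00171), Npas2 (-2.10, adjusted p = 0.00829) and Ciart (2.01, adjusted p = 0.0133). Without KO Pio mouse 13 the clock genes called for Pio were 6 higher and 3 lower, against 8.44% and 7.13% of all genes. In the same comparison Fgf21, a fasting hormone, was lower (-3.01, adjusted p = 0.00101). The summed hepatocyte markers ranged from 75782 to 123797 CPM in WT control and 93784 to 147960 CPM in WT HFD mice. Of 8 adipocyte markers 5 were tested, and the defining Adipoq, Lep and Plin1 did not reach the count filter, with Adipoq at most 0.670 CPM and Plin1 at most 2.16 CPM in any mouse. The 8 adipocyte markers summed to 28.7 to 37.8 CPM in WT control and 101.6 to 281 CPM in WT Pio mice. Cidea, a gene that PPARγ is known to drive in liver, made up 48.2 to 253 CPM in the latter. Retn was also higher there, at 2.33 to 4.76 CPM against at most 0.0604 CPM in WT control mice. Macrophage markers summed to 243 to 550.5 CPM in WT control and 316 to 362 CPM in WT HFD mice. In KO Pio against KO control mice, where Pnpla3 and Acacb were higher, the adipocyte list summed to 21.2 to 94.3 against 20.2 to 23.4 CPM, with Lipe (0.84, adjusted p = 0.0313) and Nnat (0.98, adjusted p = 0.0468) called higher. The blood list summed to 197 to 511 against 147 to 265 CPM, with Hba-a2 (1.59, adjusted p = 0.0367) and Hba-a1 (1.48, adjusted p = 0.0472) called higher, and the hepatocyte marker Apob was lower (-0.70, adjusted p = 0.0386). Without mouse 13 none of these 5 genes was called. The part of these genes in the results was not tested.

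The genes most like the members in pattern were found by the Spearman correlation of each of 9271 genes with the mean standardized log2 CPM of the 10 members, over 20 mice of a genotype. In WT mice these were Chrna4, a nicotinic receptor subunit (rho = 0.95, r = 0.93), Fmo4 (rho = 0.94, r = 0.93) and Acss2 (rho = 0.92, r = 0.95). In KO mice they were Ugt1a5 (rho = 0.93, r = 0.89), Cs, the citrate synthase gene (rho = 0.91, r = 0.84), and Mr1 (rho = 0.91, r = 0.79). Mice share the treatment in each group, so that the coefficient describes groups as much as mice. Of deviations from the group means, r was 0.76 for Chrna4, 0.73 for Fmo4, 0.85 for Acss2, 0.84 for Ugt1a5, 0.88 for Cs and 0.78 for Mr1. Without the 2 mice farthest from the median it was 0.92, 0.93 and 0.95 for the WT genes and 0.85, 0.75 and 0.71 for the KO genes.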

How the data were processed

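Liver RNA was sequenced after poly-A selection, and reads were mapped to GRCm38 by the authors using STAR 2.0.4b, who then counted unique, unambiguous reads per Ensembl 76 gene with Subread featureCounts 1.4.5. The deposited values are these raw counts, with a table per genotype. Repeated lines for a gene (574 in the WT and 598 in the KO table) were identical in counts and kept once. The tables were joined by Ensembl identifier (40594 genes), 355 rRNA genes were removed, and the 12942 genes reaching 1 CPM in 5 or more of 40 mice were kept. Counts were normalised by TMM and fitted with edgeR 4.0.16 (R 4.3.3) by the robust quasi-likelihood test in 1 model of 8 group means, and 14 comparisons were each adjusted by Benjamini-Hochberg over all genes tested. Genes were called at an adjusted p of 0.05. Intervals are 95% intervals of that test. CPM are TMM-scaled, and RPKM divides them by the exon bases of GENCODE M21. Single genes were also compared by an exact two-sided permutation test of 5 against 5 mice on log2 CPM with a prior count of 2. Alternatives were RLE size factors, DESeq2 1.42.0, limma 3.58.1 with sample weights, no count filter, each genotype alone, and each mouse left out. Tested on simulated data, WT HFD against control recovered 72% of changes of 1 and 95% of changes of 2 on the log2 scale among 12942 genes. The changed genes were drawn at random and the mice varied independently. Members spread more within groups than most genes (median SD 0.82 against 0.33) and varied together. These shares therefore do not give the recovery of the members. Members and gene lists were chosen with earlier results of these data known. Named were the members, at most 3 called genes of each list and comparison with the smallest adjusted p (others are said to be named after their values were seen), and the 3 genes closest to the members in each genotype. Results of 1 gene of the fasting and feeding list are not reported here. Within groups, the 80 pairs of mice all differed by more than counting noise (mean chi-square per gene at least 14.2).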

Additional observations from a re-analysis of the deposited data

Results flagged for a closer look

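In 80 groups of 5 mice (10 genes in 8 groups) a single mouse lay far from the other 4 on the log2 scale in 5 cases, and chance alone gives about 1 in 20. WT Pio mouse 842 was the lowest of its group in 3 genes: Acacb at 467 CPM against 743 to 799.8 CPM in the others, Me1 at 175 CPM against 414 to 522 CPM, and Pnpla3 at 49.8 CPM against 127 to 185 CPM. Scd1 in KO Pio mouse 13 measured 5609 CPM against 31872 to 50968 CPM. Elovl6 in WT control mouse 833 measured 287 CPM against 116 to 147 CPM. The members share these mice, so that the cases are not independent of each other.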

How the results depend on the processing

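Of 80 fold changes of a member between 2 groups, RLE size factors kept 79 on the same side of the threshold, DESeq2 67 (13 gained a call), limma 70 (9 gained and 1 lost), no count filter 78 (2 lost) and each genotype alone 68 (9 gained and 3 lost), and none of these turned a direction. In WT mice, Pio against control had 0 members called but 1 with DESeq2, 1 with limma and 1 with the genotype alone. HFD-Pio against HFD had 0 but 3 with DESeq2 and 3 with the genotype alone, and HFD-Pio against Pio had 5 but 8 with limma. There Fasn (adjusted p = 0.0124) and Elovl6 (0.0123) also gained a call with DESeq2, as with the genotype alone (0.0172 and 0.0133). In HFD against control Acaca, Elovl6 and Me1 gained a call with DESeq2 (adjusted p = 0.0396, 0.0109 and 0.0372). With the genotype alone they did so too (adjusted p = 0.0221, 0.00833 and 0.0449). In KO mice, Pio against control had 2 but 4 with limma, which added Scd1 and Elovl5, and 0 with the genotype alone. DESeq2 added Scd1 in this comparison. HFD against control had 0 but 1 with limma, and HFD-Pio against Pio 1 but 4 with DESeq2, 3 with limma and 0 with the genotype alone. The difference between KO and WT for HFD without Pio had 0 but 1 with DESeq2, which called 91 genes in all against 8 with edgeR. The cause was not tested. Leaving out 1 mouse gave, in WT mice, 0 to 1 members called for Pio against control, 0 to 3 for HFD-Pio against HFD, 2 to 8 for HFD against control and 1 to 7 for HFD-Pio against Pio. In KO mice it gave 1 to 2 for Pio against control, 0 for both HFD-Pio against HFD and HFD against control, and 0 to 3 for HFD-Pio against Pio. The differences between KO and WT for Pio on control diet and for HFD without Pio each gave 0 to 1. Directions turned for Acly with Pio in WT mice (-0.0036 to 0.59), Elovl6 with Pio in KO mice (-0.18 to 0.40), and Acacb (-0.83 to 0.017) and Acly (-0.53 to 0.24) with HFD in KO mice. Over all genes, Pio against control in WT mice gave 506 calls, 813 with DESeq2, 3095 with limma, 315 with no filter and 936 with the genotype alone, and Pio against control in KO mice gave 1166 and, with the genotype alone, 0. HFD-Pio against HFD in WT mice gave 140, 360 with DESeq2 and 156 with the genotype alone. In the same order HFD against control gave 170, 376 and 345. HFD-Pio against Pio gave 158, 380 and 203, and 2937 with limma. With limma, KO mice gave 1216 for Pio against control and 542 for HFD against control, which had 24 with edgeR. Between KO HFD-Pio and KO Pio mice 642 were called, 1012 with DESeq2, 309 with limma and 0 with the genotype alone. No paired analysis was possible because each mouse number belongs to 1 mouse and groups share none. Summed counts of Pnpla3 were lowest in KO HFD mice, with 16 to 34 counts a mouse. The lowest single mouse was in KO control, the group compared with KO Pio, with 14 to 311 counts a mouse.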
